A study of Mus musculus with 16 samples.

Results

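Transcripts of the respiratory chain, of the ATP synthase, of the mitochondrial protein import machinery and of the mitochondrial carriers were followed in embryonic mouse heart ventricles with and without Atf4. The genes were taken by symbol alone: those starting with Nduf, Sdha to Sdhd, Uqcr, Cox and a digit, Atp5, Timm, Tomm or Slc25a, leaving out 4 pseudogene rows. That gave 28 genes of the 5921 used here, and all 28 were among the 2620 genes that were tested, those with a mean of at least 1 TPM (a length-corrected share of a library's transcripts). They comprised 7 genes of complex I, 2 of complex II, 3 of complex III, 1 subunit and 3 assembly factors of complex IV, 3 of the ATP synthase, 3 of inner membrane import, 1 of outer membrane import and 5 carriers. The other nuclear genes of these families lie outside the rows used here, which cover chromosomes 1 and 10 and part of chromosome 11, and were not analysed here. No class is therefore complete, and the classes too were set by symbol.

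RNA came from ventricles dissected at E11.5, in midgestation, in 4 groups of 4 libraries that the design text calls biological replicates. The Cre recombinase was driven by the Xmlc2-Cre transgene, which acts in cardiomyocytes, so other cells of the ventricle were not targeted. In the exon 2-3 line (batch 1) exons 2 and 3 of Atf4 were flanked by loxP sites, and conditional knockouts (cKO) were compared with controls of that line. In the exon 2 line (batch 2) exon 2 alone was flanked, again with its own controls. The genotype label reads C57BL/6 WT for every library, cKO included, and whether controls carried the floxed allele or the transgene is not stated. The level of Atf4, a check of the labels, was not analysed here.

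The respiratory chain is a series of protein complexes in the inner mitochondrial membrane. Complexes I and II pass electrons from NADH and succinate to a quinone, complex III passes them to cytochrome c, and complex IV passes them to oxygen. The protons pumped on the way drive the ATP synthase. Most of their subunits are encoded in the nucleus, made in the cytosol and brought in by the outer (Tomm) and inner (Timm) membrane machinery, while Slc25a carriers move phosphate, glutathione and other metabolites across the inner membrane. The early embryonic heart relies much on glycolysis, and its mitochondria mature as development goes on. ATF4 is a transcription factor induced by the integrated stress response, and mitochondrial damage is a known input to that response.

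Promoter sequences are shown for Ndufs7, the gene of the set that passed the test between cKO and control, and for Uqcr10 and Uqcr11, subunits of complex III that differed widely between the control groups. Each is the RefSeq window (GRCm38.p6) from 250 bases before to 50 bases after a transcript start, printed 5′ to 3′ on the gene's strand, with capitals marking a match to a searched motif. The window of Ndufs7 is chr10:80249199-80249498 (plus strand), around a start that lies inside the span of its row. The window of Uqcr11 is chr10:80406772-80407071 (minus strand) and that of Uqcr10 is chr11:4704295-4704594 (minus strand).
Ndufs7: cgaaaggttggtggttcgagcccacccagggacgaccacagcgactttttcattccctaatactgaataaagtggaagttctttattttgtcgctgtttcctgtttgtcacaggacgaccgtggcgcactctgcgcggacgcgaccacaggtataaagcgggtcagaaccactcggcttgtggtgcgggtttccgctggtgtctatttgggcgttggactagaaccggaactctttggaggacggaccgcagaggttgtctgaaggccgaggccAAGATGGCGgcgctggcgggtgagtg
Uqcr11: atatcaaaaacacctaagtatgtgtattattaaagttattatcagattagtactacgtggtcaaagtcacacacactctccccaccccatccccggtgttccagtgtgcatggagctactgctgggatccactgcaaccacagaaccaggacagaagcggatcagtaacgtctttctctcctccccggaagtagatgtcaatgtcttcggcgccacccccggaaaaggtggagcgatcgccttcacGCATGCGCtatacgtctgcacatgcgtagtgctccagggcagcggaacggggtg
Uqcr10: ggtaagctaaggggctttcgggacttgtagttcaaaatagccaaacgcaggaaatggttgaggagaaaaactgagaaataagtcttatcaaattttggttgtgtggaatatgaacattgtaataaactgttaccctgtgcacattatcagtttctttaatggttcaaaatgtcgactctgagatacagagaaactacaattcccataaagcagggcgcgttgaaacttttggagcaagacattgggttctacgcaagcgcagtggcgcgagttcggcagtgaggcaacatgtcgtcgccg
In Ndufs7 the capitals spell the motif AAGATGGCG of YY1, a factor found at many promoters of mitochondrial genes, at position 25 after the start. In Uqcr11 they are the reverse complement of GCGCATGC, a core of the motif of NRF1 (nuclear respiratory factor), 4 bases before the start. The Uqcr10 window held no match to any of the 4 motifs searched. Promoters were found for 21 of the 28 genes (23 windows) and searched on both strands, with no overlap between the motifs found. The YY1 letters were in 3 of 23 windows (13.0%; Ndufs7, Slc25a3 and Cox10), against 3.91% of the windows of genes tested and 1.40% of all RefSeq promoters of this length. The NRF1 letters were in 2 of 23 windows (8.70%; Uqcr11 and Timm13), against 5.10% and 2.71%. The composite element of ATF4 and C/EBP factors, TGATGNAA, was in 0 of 23 windows, against 2.17% and 3.97%. The estrogen-related receptor element CAAGGTCA was also in 0 of 23, against 1.06% and 1.56%. These are letter matches within these windows and nothing more.

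These were abundant transcripts in every group. Their median level, averaged over the 16 libraries, was 152.5 TPM, against 15.9 TPM for all genes tested. A mean above 100 TPM was seen for 18 of the 28 genes (64.3%) and for 246 of the 2620 genes tested (9.39%). Atp5b, the catalytic beta subunit of the ATP synthase, was the most abundant at 2852 TPM, and Slc25a35, a carrier, the least at 1.24 TPM. Between those ends stood Cox5b (836 TPM), Slc25a3 (814 TPM) and Uqcr10 (714 TPM). The 28 genes summed to 10936 ± 496 TPM in the exon 2-3 controls and 10389 ± 275 TPM in their cKO (SD, n = 4 each). For the exon 2 line the sums were 8595 ± 237 and 8344 ± 210.3 TPM. The cKO and control sums overlapped within each line, while every library of the exon 2-3 line summed above every library of the exon 2 line. As a percentage of the TPM in all rows used, the ranges did not overlap and cKO was lower. In the exon 2-3 line they were 6.704 to 6.887% in controls and 6.117 to 6.688% in cKO. In the exon 2 line they were 5.151 to 5.317% and 5.089 to 5.146%. Such a percentage also moves with the other rows. Most members varied little between libraries of a group. Of 1144 genes with a mean of at least 20 TPM, the median residual SD on the log2(TPM + 1) scale was 0.10, and 24 members were among them. Sdhc (0.052) and Ndufa10 (0.052) ranked 1137 and 1136 from the most variable. At the other end Cox20 (0.63) ranked 10 and Ndufa12 (0.23) ranked 50.

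**Figure D1:**
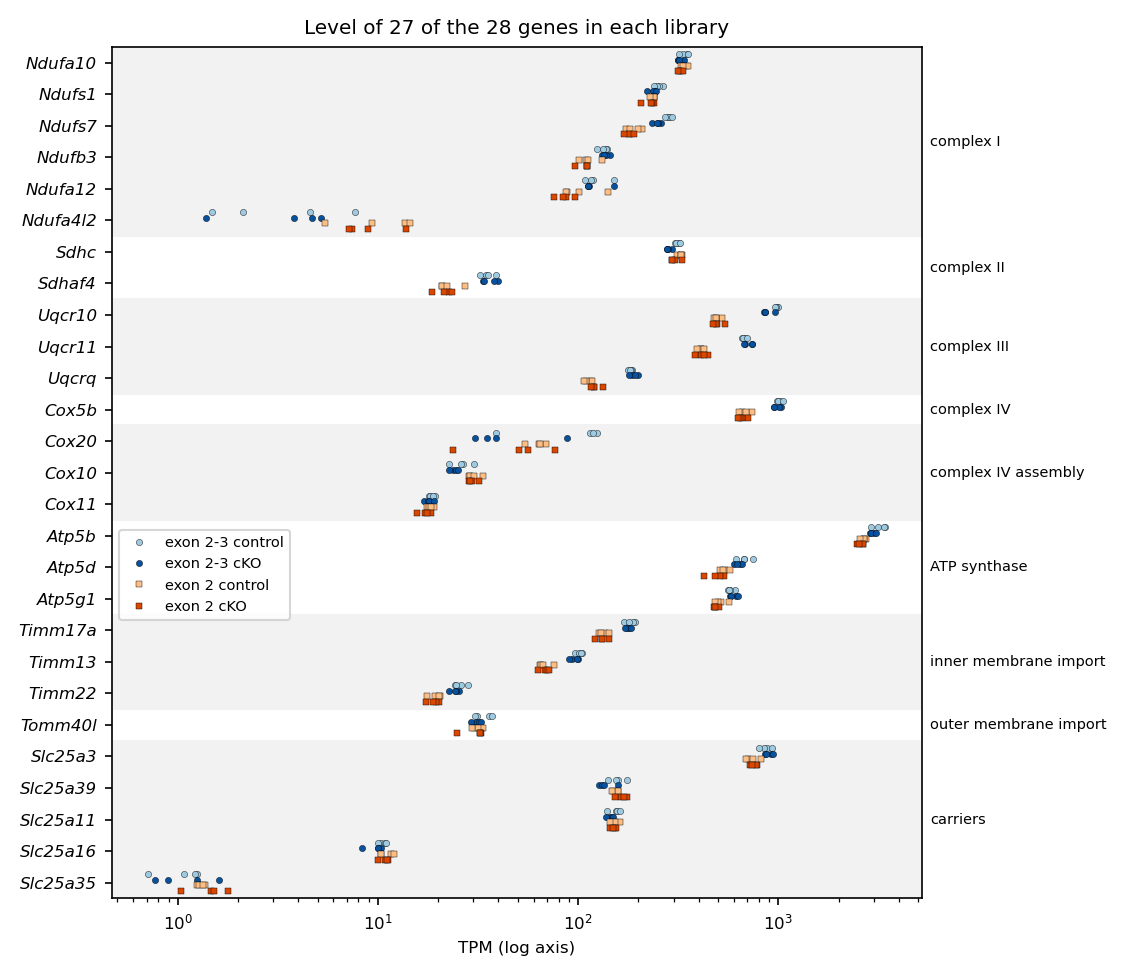
Level of 27 of the 28 genes (rows, by complex or class) in each of the 16 libraries, in TPM on a log axis; each point is 1 library and the colours are the 4 groups. Atp5b averaged 2852 TPM and Slc25a35 1.24 TPM, and the points of complex III fall into 2 clusters by line.

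The ventricle samples carried high levels of cardiomyocyte markers and few neuronal transcripts. The 5 cardiomyocyte markers among the rows used (Tnnt2, Tnni1, Myl7, Hand1 and Myocd) summed to between 7371 and 12335 TPM per library. The 5 neuronal markers summed to between 2.99 and 7.82 TPM; the extraction text of the labels also mentions cultured cortical neurons. Erythroid markers (4 genes) ranged from 1512 to 11293 TPM within the exon 2-3 cKO alone, the highest value belonging to replicate 4 and the next to a library at 5915 TPM. Within a group, libraries correlated with r between 0.982 and 0.992 across genes. TPM keeps no read depth, so the depth behind each value is unknown.

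The first comparison asked what deletion of exons 2 and 3 did to these transcripts. Ndufs7, a core subunit of complex I, was lower in the cKO, and it was the 1 member of 28 (3.57%) that passed the test, against 6.72% of all genes tested. The cKO and control libraries did not overlap for 3 members, Ndufs7, Sdhc and Uqcr10, all lower in the cKO (10.7%, against 5.31% of all genes), and no member was higher without overlap (9.24% of all genes). By sign, 20 of the 28 (71.4%) were lower, against 41.5% of all genes. Members higher numbered 8 as deposited and 4 after centring each library on its median, under which the median of all genes moved from 0.032 to -0.017. The members' median log2 difference was -0.079, against 0.032 over all genes tested. Differences are given on the log2(TPM + 1) scale, which understates those of low genes, with limma's moderated standard error and p adjusted over all genes tested. Apart from Cox20 at -1.02, the members lay between -0.19 and 0.066. At an unadjusted p under 0.05 there were 4 members (14.3%), against 21.1% of all genes. In bulk tissue fewer cells of a type and less RNA per cell cannot be told apart.

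Markers of other cell types also differed between cKO and control in the exon 2-3 line. The 6 fibroblast and mesenchyme markers held (Col1a1, Col3a1, Col5a2, Dcn, Lum and Tcf21) summed to between 325 and 370 TPM in controls and between 481 and 527 TPM in cKO, without overlap, and 5 of the 6 were called higher. Krt19, the 1 epicardial marker held, was called higher too (log2 difference 0.41, limma adjusted p 0.0143). The 5 cardiomyocyte markers summed to between 10984 and 12335 TPM in controls and between 10253 and 11471 TPM in cKO, which overlap. By sign 4 of the 5 were lower in cKO and 1 higher, with a median log2 difference of -0.32. Of these markers 1, Hand1, was called lower (limma adjusted p 0.00573). Myeloid markers (6 genes) summed to between 98.7 and 104 TPM in controls and between 86.7 and 101 TPM in cKO. Lyz2 was most of these sums, with means of 80.3 TPM in controls and 70.3 TPM in cKO. Of the 4 myeloid markers tested, 2 were higher and 2 lower in cKO, and none was called. Endothelial markers were near 0, with 3 genes held and sums of 0.853 to 1.87 TPM over both groups. The part of these shifts in the lower values of the respiratory genes was not tested.

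Deletion of exon 2 alone was compared with its own controls in the same way. No member passed the test, and none had an unadjusted p under 0.05, in a line where limma called 2 of 2620 genes (0.0763%) and 84 genes had an unadjusted p under 0.05. In no member did the cKO and control libraries part without overlap, against 0.687% of all genes higher and 1.15% lower. By sign 21 of 28 members (75%) were lower, against 56.8% of all genes, with a median log2 difference of -0.038 against -0.012 over all genes. The standard errors ran from 0.049 to 0.27 with a median of 0.065. Mesenchyme markers did not part in this line (477 to 653 TPM in controls, 460.0 to 595 TPM in cKO), nor did the cardiomyocyte markers (7371 to 8879 and 7686 to 8982 TPM).

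Signs matched between the lines in 21 of the 28 genes: 17 were lower in both cKO groups and 4 higher in both, with 7 of opposite sign. Over all 2620 genes, 23.5% were lower in both, 25.2% higher in both and 51.4% of opposite sign. A test of the difference between the 2 effects called no member, where 2.37% of all genes were called, and 2 members had an unadjusted p under 0.05. Those were Slc25a39 and Uqcr10, described below.

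**Figure D2:**
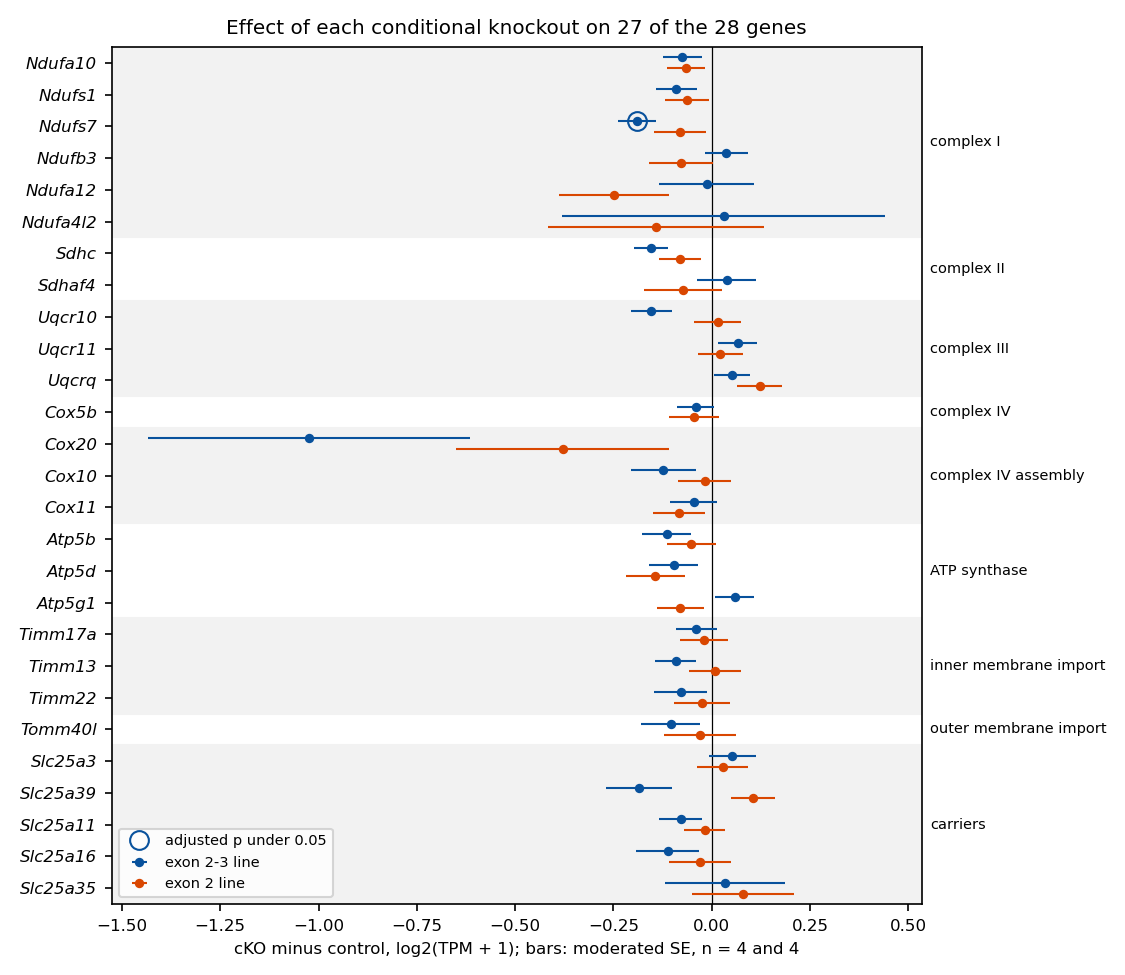
Difference between cKO and control on the log2(TPM + 1) scale for 27 of the 28 genes (rows, by class) in the exon 2-3 line and the exon 2 line; points are estimates from 4 against 4 libraries and bars the moderated standard error. Ndufs7 at -0.19 in the exon 2-3 line carries the 1 ring for an adjusted p under 0.05, and Cox20 and Ndufa4l2 have the widest bars.

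Complex I was the class with the called gene, and 5 of its 7 members were lower in the exon 2-3 cKO and 7 of 7 in the exon 2 cKO, with medians of -0.076 and -0.079. Ndufs7 (chromosome 10, 80249105 to 80256794, GRCm38.p6, as for all positions here) carries the last iron-sulphur cluster before the quinone. Ndufs7 read 283, 284, 272 and 295 TPM in the exon 2-3 controls and 259, 235, 252 and 248 TPM in their cKO. Ndufs7 read 209, 199, 173 and 182 TPM in the exon 2 controls and 181, 179, 190.2 and 170.5 TPM in their cKO. All 4 cKO libraries lay below all 4 controls in the first line and the groups overlapped in the other. The means were 283 ± 9.43 and 248 ± 10.3 TPM (SD, n = 4 each) in the exon 2-3 line, a log2 difference of -0.19 (SE 0.048, limma adjusted p 0.0438). The exon 2 line gave a difference of -0.080 (SE 0.067, limma adjusted p 0.999), and the 2 effects differed by -0.11 (SE 0.082, limma adjusted p 0.61). Of the 8 fits that left out 1 library, 7 gave no call, with adjusted p up to 0.124, and only the fit without control replicate 3 kept it (0.0304), while the log2 difference stayed between -0.21 and -0.16.

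Ndufb3 (chromosome 1, 58586397 to 58595964) is an accessory subunit of the membrane arm. Ndufb3 read 139, 138, 134 and 124 TPM in the exon 2-3 controls and 145, 138, 132 and 135 TPM in their cKO. Ndufb3 read 109, 132, 101 and 112 TPM in the exon 2 controls and 96.7, 111, 110.3 and 110.4 TPM in their cKO. These values overlapped between cKO and control in both lines, with log2 differences of 0.037 (SE 0.054, limma adjusted p 0.744) and -0.079 (SE 0.081, limma adjusted p 0.999) in the exon 2-3 and exon 2 lines. Ndufs1 and Ndufa10, also subunits of complex I, had log2 differences of -0.090 and -0.076 in the exon 2-3 line and -0.063 and -0.065 in the exon 2 line, none of which passed the test.

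Ndufa12 and Ndufa4l2 were the uneven members of the complex I class. Ndufa4l2 was placed there by its symbol alone, and whether it encodes a subunit was not checked. Ndufa12 (chromosome 10, 94199035 to 94221440) encodes an accessory subunit of the matrix arm. Ndufa12 read 150.4, 109, 118 and 116 TPM in the exon 2-3 controls and 113, 112, 112 and 151 TPM in their cKO. Ndufa12 read 101, 140.4, 87.7 and 86.7 TPM in the exon 2 controls and 96.8, 86.7, 84.2 and 75.7 TPM in their cKO. In 3 of the 4 groups 1 library was well above the others (control 1 and cKO 4 of the exon 2-3 line, control 2 of the exon 2 line). Of these only cKO 4 met the rule for flagged libraries given further below. The log2 differences were -0.013 (SE 0.12, limma adjusted p 0.975) and -0.25 (SE 0.14, limma adjusted p 0.999), and 53.8% of the gene's 50-base words also occur in another annotated gene, Gm15920, so its value is uncertain. Ndufa4l2 (chromosome 10, 127509274 to 127517154), a relative of Ndufa4 known as a hypoxia-inducible gene, was the lowest of the class. Ndufa4l2 read 1.48, 4.56, 2.13 and 7.71 TPM in the exon 2-3 controls and 1.38, 5.22, 3.83 and 4.70 TPM in their cKO. Ndufa4l2 read 9.36, 5.42, 13.7 and 14.5 TPM in the exon 2 controls and 7.43, 8.97, 13.8 and 7.20 TPM in their cKO. Its libraries spread widely within each group, and the log2 differences of 0.030 (SE 0.41, limma adjusted p 0.983) and -0.14 (SE 0.27, limma adjusted p 0.999) are small beside that spread. It overlaps Shmt2 on the other strand by 32 bases, and the sources do not say whether reads were counted by strand.

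In complex II, Sdhc was lower in the exon 2-3 cKO without passing the test. Sdhc (chromosome 1, 171129157 to 171150640) encodes a membrane anchor that binds the quinone. Sdhc read 321, 306, 309 and 323 TPM in the exon 2-3 controls and 294, 279, 281 and 277 TPM in their cKO. Sdhc read 332, 311, 326 and 327 TPM in the exon 2 controls and 294, 331, 306 and 296 TPM in their cKO. The groups of the exon 2-3 line did not overlap, with means of 315 ± 8.70 and 283 ± 7.63 TPM (SD, n = 4 each), while those of the exon 2 line did. The log2 differences were -0.15 (SE 0.043, limma adjusted p 0.0679) and -0.080 (SE 0.054, limma adjusted p 0.999). Without control replicate 3 the first reached an adjusted p of 0.0493, and over the other 7 fits with 1 library left out it ran up to 0.179. Sdhaf4 (chromosome 1, 23995939 to 24005640), an assembly factor of the complex, was at a mean of 29.0 TPM, against 307 TPM for Sdhc. Sdhaf4 read 34.5, 38.9, 32.4 and 35.3 TPM in the exon 2-3 controls and 39.7, 33.5, 37.8 and 34.1 TPM in their cKO. Sdhaf4 read 27.2, 20.9, 20.8 and 22.1 TPM in the exon 2 controls and 18.7, 22.8, 21.3 and 23.4 TPM in their cKO. Control and cKO overlapped in both lines, with log2 differences of 0.038 (SE 0.075, limma adjusted p 0.826) and -0.072 (SE 0.099, limma adjusted p 0.999).

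Complex III was represented by 3 small subunits without redox groups, and their differences in the exon 2-3 cKO had both signs. Uqcr10 (chromosome 11, 4701968 to 4704344) was the most abundant. Uqcr10 read 987, 996, 975 and 961 TPM in the exon 2-3 controls and 959.9, 859, 849 and 859.9 TPM in their cKO. Uqcr10 read 522, 489, 479 and 488 TPM in the exon 2 controls and 544, 496, 489 and 470.5 TPM in their cKO. In the exon 2-3 line every cKO library was below every control, although cKO replicate 1, at 959.9 TPM, stood close to the lowest control, and the other line overlapped. The means were 979.8 ± 14.97 and 882 ± 52.3 TPM (SD, n = 4 each), and the log2 difference was -0.15 (SE 0.052, limma adjusted p 0.119) against 0.015 (SE 0.059, limma adjusted p 0.999) in the exon 2 line. The difference between the 2 effects was -0.17 (SE 0.077, limma adjusted p 0.31). No fit with 1 library left out called Uqcr10 in the exon 2-3 line, with adjusted p between 0.0501 and 0.271.

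Uqcr11 and Uqcrq had the opposite sign to Uqcr10 in the exon 2-3 line and passed no test between cKO and control in either line. Uqcr11 (chromosome 10, 80402997 to 80406821) was the next in level. Uqcr11 read 683, 659.6, 665 and 697 TPM in the exon 2-3 controls and 738, 682, 741 and 673 TPM in their cKO. Uqcr11 read 409.8, 413, 392 and 427 TPM in the exon 2 controls and 444, 412, 426 and 386 TPM in their cKO. Both lines overlapped, with log2 differences of 0.066 (SE 0.050, limma adjusted p 0.497) and 0.022 (SE 0.058, limma adjusted p 0.999). Uqcrq (chromosome 11, 53427922 to 53430831) had the smallest unadjusted p of the members in the exon 2 line, 0.0575. Uqcrq read 178, 185, 183 and 182 TPM in the exon 2-3 controls and 199, 186, 192 and 180.0 TPM in their cKO. Uqcrq read 116, 117, 110.1 and 108 TPM in the exon 2 controls and 134, 121, 120.0 and 116 TPM in their cKO. In the exon 2 line 3 cKO libraries lay above all controls and replicate 4 did not, and the exon 2-3 ranges overlapped. Its log2 differences were 0.052 (SE 0.045, limma adjusted p 0.563) and 0.12 (SE 0.057, limma adjusted p 0.999).

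Of complex IV, the 1 subunit held varied little between libraries of a group, and an assembly factor, Cox20, varied widely. Cox5b (chromosome 1, 36691487 to 36693388), a subunit that faces the matrix, was measured at high level. Cox5b read 1015, 989.7, 998 and 1054 TPM in the exon 2-3 controls and 1028, 956, 1005 and 956 TPM in their cKO. Cox5b read 661, 739, 639.9 and 690.0 TPM in the exon 2 controls and 708, 662, 645 and 629 TPM in their cKO. Control and cKO ranges overlapped in both lines, with log2 differences of -0.040 (SE 0.047, limma adjusted p 0.681) and -0.045 (SE 0.063, limma adjusted p 0.999). Cox5b shares 25.9% of its 50-base words with 1 other annotated gene, Gm11273, and its level may include reads of that gene.

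Cox20 (chromosome 1, 178318095 to 178322693), a chaperone for a mitochondrially encoded complex IV subunit, had the largest difference of the set and no call. Cox20 read 115, 124, 38.8 and 118 TPM in the exon 2-3 controls and 38.7, 30.6, 87.9 and 35.04 TPM in their cKO. Cox20 read 54.3, 68.97, 63.6 and 64.2 TPM in the exon 2 controls and 76.3, 56.3, 23.9 and 50.8 TPM in their cKO. In the exon 2-3 line, 3 controls lay between 115 and 124 TPM and 1 at 38.8 TPM, while 3 cKO libraries lay between 30.6 and 38.7 TPM and 1 at 87.9 TPM. Replicate 3 was the exception in both groups, and cKO replicate 3 of the other line was also the lowest of its group, at 23.9 TPM. The log2 differences were -1.02 (SE 0.41, limma adjusted p 0.18) and -0.38 (SE 0.27, limma adjusted p 0.999). Without control replicate 3 the first became -1.42 with an adjusted p of 0.0355, and the other 7 fits with 1 library left out gave no call, with adjusted p up to 0.352. Cox20 overlaps Hnrnpu on the other strand over 1586 of its 4599 bases, and Hnrnpu was at 131 to 168 TPM in the exon 2-3 line and 157 to 212 TPM in the exon 2 line. In addition 12.6% of its words occur in other annotated genes, so the value of Cox20 is uncertain.

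Cox10 (chromosome 11, 63962627 to 64079472), which makes the heme of complex IV, and Cox11, which delivers copper to it, were lower in both cKO groups by small amounts that passed no test. Cox10 read 26.5, 26.1, 22.8 and 30.1 TPM in the exon 2-3 controls and 23.8, 22.6, 24.5 and 25.2 TPM in their cKO. Cox10 read 33.4, 28.4, 28.9 and 30.1 TPM in the exon 2 controls and 31.9, 28.7, 29.6 and 28.9 TPM in their cKO. Ranges overlapped, with log2 differences of -0.12 (SE 0.082, limma adjusted p 0.424) and -0.018 (SE 0.067, limma adjusted p 0.999). Cox11 differed by -0.046 and -0.083 at a mean of 18.03 TPM.

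The ATP synthase genes did not pass the test in either line. Atp5b (chromosome 10, 128083307 to 128090388) is the catalytic subunit. Atp5b read 3407, 3148, 2913 and 3376 TPM in the exon 2-3 controls and 3017, 2866, 2894 and 3064 TPM in their cKO. Atp5b read 2742, 2670.0, 2693 and 2557 TPM in the exon 2 controls and 2478, 2635, 2640.1 and 2533 TPM in their cKO. Control 3 of the exon 2-3 line was the lowest of its group and fell inside the cKO range, and the exon 2 ranges overlapped as well. The log2 differences were -0.11 (SE 0.063, limma adjusted p 0.337) and -0.052 (SE 0.063, limma adjusted p 0.999). Atp5d (chromosome 10, 80138698 to 80145828) encodes the delta subunit of the central stalk. Atp5d read 676, 671, 616 and 747 TPM in the exon 2-3 controls and 646, 604, 659 and 622 TPM in their cKO. Atp5d read 539, 573, 512 and 531 TPM in the exon 2 controls and 539, 509, 480.5 and 428 TPM in their cKO. It overlapped in both lines, at -0.10 (SE 0.063, limma adjusted p 0.413) and -0.14 (SE 0.074, limma adjusted p 0.999). Atp5g1 (chromosome 11, 96072793 to 96075694) encodes the membrane ring subunit. Atp5g1 read 609, 558, 571 and 565 TPM in the exon 2-3 controls and 617, 576, 579 and 626 TPM in their cKO. Atp5g1 read 566, 518, 499 and 480.3 TPM in the exon 2 controls and 485, 504, 478 and 481 TPM in their cKO. The signs differed between the lines, at 0.058 (SE 0.050, limma adjusted p 0.558) and -0.080 (SE 0.060, limma adjusted p 0.999), and the effects differed by 0.14 (SE 0.076, limma adjusted p 0.43). As 66.0% of its 50-base words occur in other annotated genes, Gm10039 first, the level of Atp5g1 is uncertain.

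The import genes were lower in the exon 2-3 cKO in 4 of 4 cases, with log2 differences of -0.10 to -0.040, none of which passed the test. Timm17a (chromosome 1, 135301535 to 135313737) is part of the channel for proteins with a presequence. Timm17a read 192, 189, 169.5 and 179 TPM in the exon 2-3 controls and 179, 175, 184 and 172 TPM in their cKO. Timm17a read 136, 142, 127 and 129 TPM in the exon 2 controls and 121, 142, 132 and 132 TPM in their cKO. Ranges overlapped, at -0.040 (SE 0.052, limma adjusted p 0.715) and -0.020 (SE 0.061, limma adjusted p 0.999). Timm13 (chromosome 10, 80899450 to 80900969) is a small chaperone of the space between the membranes. Timm13 read 96.8, 105, 101 and 103 TPM in the exon 2-3 controls and 99.9, 93.1, 98.3 and 89.7 TPM in their cKO. Timm13 read 75.7, 64.9, 65.1 and 66.5 TPM in the exon 2 controls and 68.7, 70.2, 71.5 and 63.04 TPM in their cKO. In the exon 2-3 line cKO replicates 1 and 3 lay within the control range and the other 2 below it, and the differences were -0.092 (SE 0.052, limma adjusted p 0.351) and 0.0086 (SE 0.066, limma adjusted p 0.999). Timm22 (chromosome 11, 76406925 to 76416313) forms the channel that inserts carriers. Timm22 read 25.9, 24.2, 24.5 and 28.3 TPM in the exon 2-3 controls and 25.5, 22.7, 24.5 and 24.4 TPM in their cKO. Timm22 read 20.4, 19.2, 20.1 and 17.6 TPM in the exon 2 controls and 17.3, 20.1, 19.6 and 18.9 TPM in their cKO. Ranges overlapped, at -0.079 (SE 0.067, limma adjusted p 0.546) and -0.025 (SE 0.072, limma adjusted p 0.999). Tomm40l (chromosome 1, 171217802 to 171222514), a paralog of the outer membrane pore, was the 1 outer membrane gene. Tomm40l read 35.8, 31.4, 30.6 and 37.3 TPM in the exon 2-3 controls and 31.1, 29.1, 32.1 and 32.9 TPM in their cKO. Tomm40l read 33.5, 30.1, 31.7 and 29.4 TPM in the exon 2 controls and 24.9, 32.9, 32.5 and 32.3 TPM in their cKO. The differences were -0.10 (SE 0.075, limma adjusted p 0.467) and -0.030 (SE 0.091, limma adjusted p 0.999), with ranges that overlapped in both lines.

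Among the carriers, Slc25a39 had opposite signs in the 2 lines. Slc25a39 (chromosome 11, 102402969 to 102408675) is needed for glutathione import into mitochondria. Slc25a39 read 158, 154, 140.5 and 175 TPM in the exon 2-3 controls and 127, 132, 135 and 158 TPM in their cKO. Slc25a39 read 149, 159, 158 and 148 TPM in the exon 2 controls and 164, 175, 170.4 and 152 TPM in their cKO. In the exon 2-3 line 3 cKO libraries lay below all controls and replicate 4 did not, and in the exon 2 line 3 cKO libraries lay above all controls and replicate 4 did not. The log2 differences were -0.19 (SE 0.084, limma adjusted p 0.239) and 0.11 (SE 0.056, limma adjusted p 0.999). The test of the difference gave -0.29 (SE 0.10, limma adjusted p 0.168) over the libraries as scaled by the authors. It passed under 3 of the planned rescalings: quantile normalisation (0.00959), centring on the library median (0.0207) and rescaling without hemoglobin genes (0.0446). None of the 16 fits with 1 library left out called it, with limma adjusted p between 0.0632 and 0.294.

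Slc25a3 (chromosome 10, 91116574 to 91124046), the phosphate carrier that supplies the ATP synthase, was the most abundant carrier. Slc25a3 read 877, 851, 801 and 932 TPM in the exon 2-3 controls and 924, 859, 866 and 939 TPM in their cKO. Slc25a3 read 815, 706, 747 and 693 TPM in the exon 2 controls and 720.2, 786, 772 and 738 TPM in their cKO. Control and cKO overlapped, with log2 differences of 0.053 (SE 0.059, limma adjusted p 0.665) and 0.028 (SE 0.065, limma adjusted p 0.999). The remaining carriers passed no test. Slc25a11, the oxoglutarate carrier, differed by -0.079 and -0.018 at a mean of 149.9 TPM. Slc25a16 (10.5 TPM) differed by -0.11 and -0.031, and Slc25a35 (1.24 TPM) by 0.034 and 0.079.

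**Figure D3:**
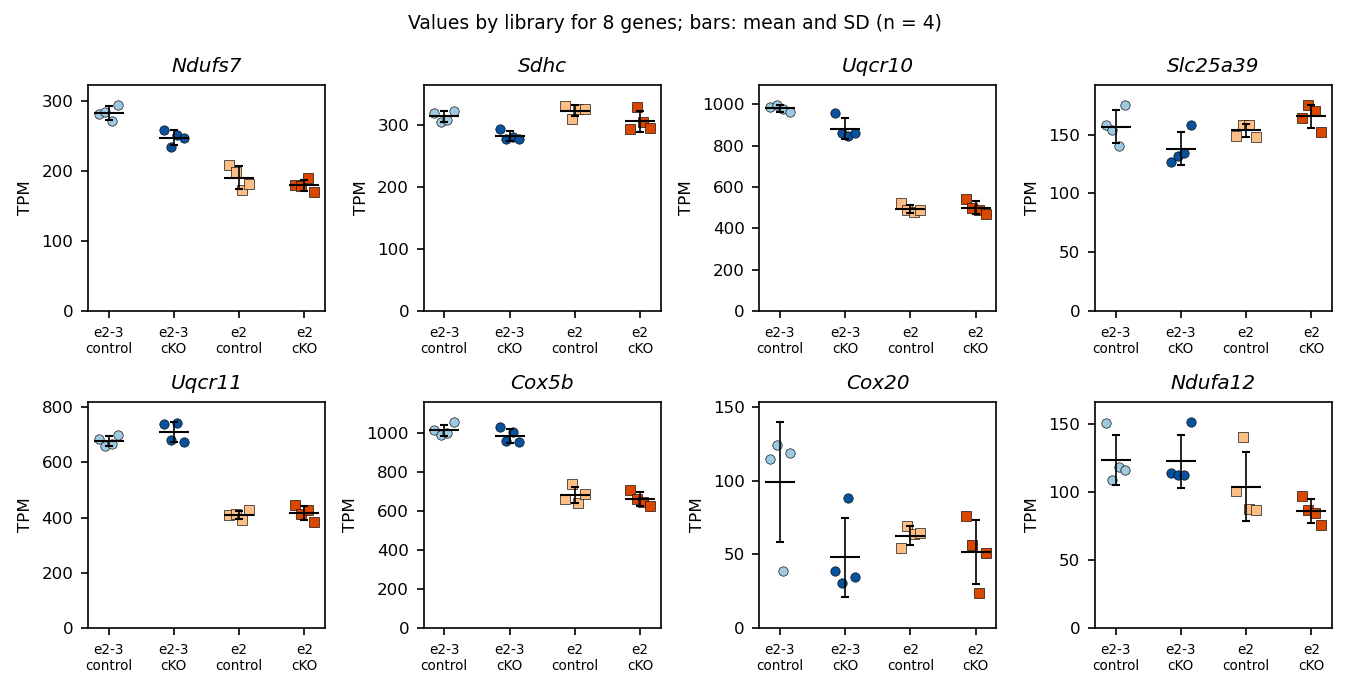
TPM in every library (points) for 8 of the genes, with the group mean and SD (bars, n = 4), for control and cKO of the exon 2-3 line (e2-3) and the exon 2 line (e2). Ndufs7, Sdhc and Uqcr10 do not overlap between cKO and control in the exon 2-3 line, Cox20 and Ndufa12 each have single libraries away from their group, and Uqcr10, Uqcr11 and Cox5b differ between the lines in control and cKO alike.

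Most of the calls in this set were made between the 2 control groups. Line and batch cannot be told apart in that comparison, so it describes the libraries and is no result on Atf4. The exon 2-3 controls were higher for 22 of the 28 genes (19 to 26 under the other scalings), and limma called 17 (60.7%, against 52.6% of all genes tested). The directions of the calls were 15 higher and 2 lower (88.2% higher), whereas over all genes 378 were higher and 999 lower (27.5% higher). The median log2 difference was 0.23 for the members and -0.14 for all genes tested. Groups did not overlap for 12 members higher (42.9%, against 12.9% of all genes) and 1 lower (3.57%, against 32.6%). Of the 17 calls, 12 were also made under every alternative run. The split of all calls moved with the scaling, from 27.5% higher as deposited to 57.7% after centring on the library median (24 members called) and 39.9% after quantile normalisation (14 members called). Centring moved the median of all genes from -0.14 to 0.041 and that of the members from 0.23 to 0.41.

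All 3 complex III genes were called higher in the exon 2-3 controls, by 0.99 for Uqcr10 (SE 0.054, limma adjusted p 7.81e-10), 0.72 for Uqcr11 (SE 0.052, 1.99e-08) and 0.69 for Uqcrq (SE 0.049, 1.79e-08). Their summed level was 1838 ± 10.2 TPM against 1017 ± 27.4 TPM (SD, n = 4 each), and the cKO groups stood at 1779 ± 83.3 and 1040 ± 62.1 TPM. Cox5b was higher by 0.57 (SE 0.055, limma adjusted p 4.49e-07). In complex I, Ndufs7 was higher by 0.57 (SE 0.058, limma adjusted p 9.12e-07) and Ndufb3 by 0.24 (SE 0.071, limma adjusted p 0.00995). Ndufa4l2 was lower, at -1.33 (SE 0.39, limma adjusted p 0.00861). In complex II the assembly factor Sdhaf4 was higher by 0.62 (SE 0.091, limma adjusted p 4.51e-05) and Sdhc did not pass, at -0.042 (SE 0.045, limma adjusted p 0.468).

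All 3 ATP synthase genes and all 3 inner membrane import genes were called higher as well. The ATP synthase differences were 0.33 (SE 0.071, limma adjusted p 0.00113) for Atp5d, 0.27 (SE 0.061, limma adjusted p 0.00177) for Atp5b and 0.16 (SE 0.054, limma adjusted p 0.0204) for Atp5g1, and the Atp5b value had the opposite sign under quantile normalisation (-0.028, adjusted p 0.819). Timm13 differed by 0.57 (SE 0.058, limma adjusted p 9.12e-07), Timm17a by 0.44 (SE 0.055, limma adjusted p 7.83e-06) and Timm22 by 0.39 (SE 0.067, limma adjusted p 0.000155). Slc25a3 was the 1 carrier called, at 0.22 (SE 0.062, limma adjusted p 0.00632). Cox10 was lower, at -0.19 (SE 0.075, limma adjusted p 0.0415), and lost its call under several alternatives. Cardiomyocyte markers summed to 10984 to 12335 TPM in the exon 2-3 controls and 7371 to 8879 TPM in the exon 2 controls. Mesenchyme markers summed to 325 to 370 and 477 to 653 TPM, and neither sum overlapped. By marker, 3 cardiomyocyte genes were called higher in the exon 2-3 controls and 2, Hand1 and Myocd, had lower means and no call. Of the 6 mesenchyme genes, 5 were called lower and 1, Dcn, higher. The part of these markers in the differences was not tested.

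The difference between the control groups followed transcript length, in these genes and in all genes tested. Length was taken from GENCODE M21 as the shortest transcript with the longest coding sequence. Across the 28 members the Spearman correlation with length was -0.62, and across the 2524 genes tested with a length (96.3%) it was -0.60. With the longest transcript the values were -0.56 and -0.62, and with the transcript of lower-median length -0.70 and -0.44. These are correlations across genes, which share libraries and are no replicates. Of the 12 members under 1000 bases, 10 were called, 9 of them higher, with a median of 0.54, and of the 16 longer members 7 were called, 6 of them higher, with a median of 0.053. Over all genes tested, 251 of the 449 under 1000 bases were called, 215 of them higher, with a median of 0.27. At or above 1000 bases 1100 of 2075 were called, 148 of them higher, with a median of -0.19. For the cKO effect, the Spearman correlation with length over the 3 length definitions lay between -0.32 and -0.071 across members in the exon 2-3 line and between 0.15 and 0.19 across all genes tested. In the line lacking exon 2 alone it lay between -0.15 and 0.17 across members and between -0.0030 and 0.026 across all genes.

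**Figure D4:**
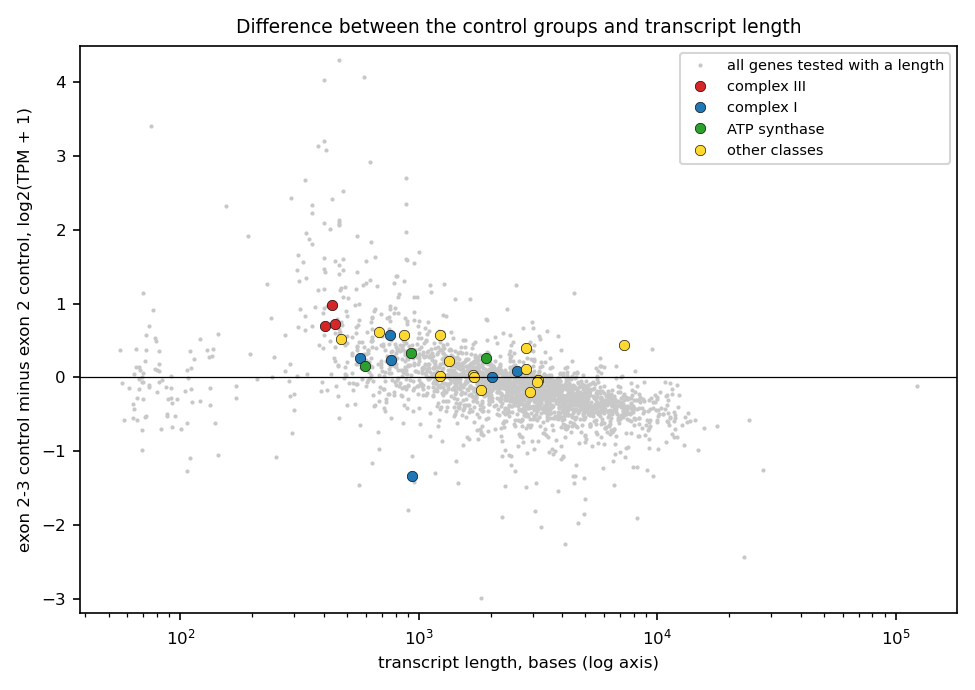
Difference between the control groups (exon 2-3 control minus exon 2 control, log2(TPM + 1)) against transcript length in bases on a log axis; grey points are the genes tested with a length and coloured points 27 of the 28 genes by class. Short genes tend to lie higher, with the 3 complex III genes between 0.69 and 0.99 at the short end. Members away from this trend include Ndufa4l2, the lowest at -1.33, and Timm17a, at 0.44 with a length of 7280 bases.

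Other genes, taken from lists by function around mitochondrial energy metabolism, gave 1 call between cKO and control. In the exon 2-3 line 6.72% of all genes tested were called, and 5.31% were lower in cKO without overlap. With exons 2 and 3 deleted, 1 of 10 genes listed as further assembly factors was called, Chchd10. It encodes a protein of the space between the mitochondrial membranes that is linked to muscle and nerve disease. Chchd10 read 197, 206, 195 and 226 TPM in controls and 169, 159, 161 and 169.5 TPM in cKO, without overlap (log2 difference -0.32, SE 0.056, limma adjusted p 0.0124). It differed by -0.030 in the exon 2 line, and the difference between the 2 effects was -0.29 (limma adjusted p 0.0734). No gene was called among 7 listed for the tricarboxylic acid cycle and pyruvate entry, 4 for coenzyme Q synthesis and 6 for mitochondrial DNA copying and transcription. The same held for 3 listed for outer membrane channels, fusion and fission, and for 1 regulator of mitochondrial biogenesis. In the list for the tricarboxylic acid cycle and pyruvate entry, 6 of 7 genes had a negative difference after deletion of exons 2 and 3. The listed genes summed to between 1916 and 2012 TPM in controls and between 1797 and 1863 TPM in cKO, without overlap. Mdh1 was the largest part of these sums, at 921 to 975 TPM per control library and 840 to 909 TPM per cKO library. The parting of the sums is therefore no result on the other listed genes, and sums without Mdh1 were not tested. Whether each listed enzyme, Mdh1 and Idh1 among them, acts inside mitochondria was not checked, so the sums are no measure of enzymes inside mitochondria. Mdh1 (malate dehydrogenase, log2 difference -0.13, limma adjusted p 0.141) and Fh1 (fumarase, -0.14, limma adjusted p 0.128) parted without overlap and passed no test, and are named after their values were seen. Each of the other genes of that list overlapped between control and cKO. In the other line the sums were 1708 to 1838 TPM in controls and 1606 to 1774 TPM in cKO, which overlap. The medians of these lists in the exon 2-3 line, in the order given, were -0.10, 0.063, 0.00092, -0.059 and -0.29. None of these genes was called in the exon 2 line, with list medians from -0.14 to 0.059.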

How the data were processed

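Mouse ventricle RNA was sequenced in 16 libraries, 4 in each of 4 groups taken from the sample titles. The authors deposited TPM values, a unit normalised to a fixed total per library, so depth is unknown. Per the submitters' processing notes the tools were FastQC, Trim Galore 0.6.7, HISAT2 2.2.1, StringTie 2.2.1, featureCounts and DESeq2 on GRCm38; which of them made the TPM, and whether counting used the strand, is not given in the sources used here. Per the labels, library preparation is described both as stranded mRNA and as ribosomal RNA depletion.

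The table was held in part, and 1 broken last row was left out. All 28 genes had the start and end of RefSeq on GRCm38.p6. Values were analysed as log2(TPM + 1) with limma 3.58.1 (R 4.3.3; lmFit, eBayes with an intensity trend) over the 2620 genes averaging 1 TPM or more, with two-sided tests and Benjamini-Hochberg adjustment at 0.05. The 8 libraries of a line were fitted alone. The difference of effects and the control comparison came from a group means model over 16 libraries. The procedure was tested on simulated data.

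Members and lists were chosen with earlier results of these data known. Every-library values are given for genes called in a comparison, the 6 with the smallest p in each line and the most abundant of each class, except 1 gene that is not reported here by name; other genes are named from lists by function or cell type. Motifs, transcript lengths and shared 50-base words (GENCODE M21) are descriptions. Alternatives were a pseudocount of 0.1, no filter or a minimum of 5 TPM, quantile normalisation, median centring, rescaling without hemoglobin genes, no trend, a replicate block, 1 joint fit, a threshold of 0.01 and leaving out each library. A rescaling that also drops Gm10222 and Gm10925 was added after seeing the data. Whether replicate numbers pair control and cKO libraries within a line was not settled, and the main fits did not pair them. No list of import partners could be described, as 0 of its 19 genes are among the rows used.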

Additional observations from a re-analysis of the deposited data

Results flagged for a closer look

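In 9 of the 112 groups examined (28 genes in 4 groups of 4 libraries), 1 library stood apart from the other 3, with a gap of more than 0.829 of the group's range; chance flags about 1 in 20 groups, or 5.6 here. Cox20 did so in both groups of the exon 2-3 line. Control replicate 3 was at 38.8 TPM against 115 to 124 TPM in the others, and cKO replicate 3 was at 87.9 TPM against 30.6 to 38.7 TPM. Ndufa12 was at 151 TPM in exon 2-3 cKO replicate 4 against 112 to 113 TPM. Uqcr10 in cKO replicate 1 of that line was at 959.9 TPM against 849 to 859.9 TPM, which brought it next to the controls. Ndufa10 in the same library was at 339 TPM against 315 to 318 TPM.

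In the exon 2 line, cKO replicate 1 was low for 2 genes: Ndufb3 at 96.7 TPM against 110.3 to 111 TPM, and Tomm40l at 24.9 TPM against 32.3 to 32.9 TPM. Control replicate 4 had the lowest Ndufs1, at 229 TPM against 240.4 to 240.6 TPM. Timm13 was highest in control replicate 1, at 75.7 TPM against 64.9 to 66.5 TPM.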

How the results depend on the processing

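In the exon 2-3 line the members called, Ndufs7 as deposited, numbered 0 without a filter, without the intensity trend, with the replicate block and at a threshold of 0.01. They numbered 2 with quantile normalisation (Ndufs7 and Slc25a39), 4 with median centring (with Sdhc and Slc25a11) and 2 (Ndufs7 and Sdhc) when rescaled without hemoglobin genes, with or without the 2 copies of mitochondrial genes. One joint fit called Sdhc in place of Ndufs7 (0.0446 and 0.0501). Leaving out 1 library gave 0 to 3 members. The difference between lines gave 1 member, Slc25a39, with quantile normalisation, median centring and both rescalings, and 0 elsewhere. In the exon 2 line every alternative gave 0.

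For the control groups, the members' median was 0.41 after median centring and 0.18 to 0.28 elsewhere. Atp5b turned to -0.028 with quantile normalisation (adjusted p 0.819), Sdhc to 0.14 (adjusted p 0.0264) and Ndufa10 to 0.18 (0.00659) with median centring. The cause of these shifts was not tested. Of 2516 values of the 28 genes in 4 comparisons under the alternatives, 2357 kept their direction and their side of the threshold, 102 changed sign with no call in either fit, 54 crossed the threshold and these 3 were reversed.

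Over all genes, the exon 2-3 line gave 176 calls, 61.9% higher. It gave 91 without a filter, 311 with quantile normalisation (50.5% higher), 343 with median centring (41.4% higher), 269 and 282 with the rescalings and 43 at 0.01, and 70 to 190 with 1 library left out. Whether replicate numbers pair control and cKO libraries was not settled. The check correlated each gene's deviation from its group mean on the log2(TPM + 1) scale, not the levels themselves. For same-numbered control and cKO libraries these correlations ran from -0.029 to 0.21 in the first line and from 0.064 to 0.20 in the other. In the first line only control 4 correlated best with the cKO library of its own number. In the exon 2 line controls 1, 2 and 3 did so and control 4 did not. With the replicate block limma called 149 genes for deletion of exons 2 and 3, 2 for exon 2, 68 for the difference and 1305 for the controls, against 176, 2, 62 and 1377 without it.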

Other observations

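Copies of mitochondrially encoded respiratory genes on chromosome 1 showed the opposite difference between the lines to the nuclear subunits; they were looked at after their values were seen. All 294 bases of the Gm10222 transcript (chromosome 1, 24612404 to 24612700) match mt-Nd4l, a complex I subunit. All 678 bases of the Gm10925 transcript (24613971 to 24614651) match mt-Atp6, an ATP synthase subunit. Reads of these copies therefore cannot be told from those of the mitochondrial genes. Gm10222 averaged 2927 and 2930 TPM in control and cKO of the exon 2-3 line and 4926 and 5192 TPM in those of the exon 2 line. Gm10925 averaged 7038, 7176, 13806 and 13711 TPM in the same order. The highest exon 2-3 library of Gm10925, at 7697 TPM, was below the lowest of the exon 2 line, at 13074 TPM. Line and batch cannot be told apart here.

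Of the 4 pseudogene rows left out, Atp5pb-ps was at 39.3 to 42.1 TPM in the exon 2-3 controls and 33.2 to 38.2 TPM in their cKO, without overlap, and at 18.6 to 24.1 TPM in the exon 2 line. Atp5l2-ps was at 24.1 to 31.2 TPM in the exon 2-3 line and 13.7 to 24.1 TPM in the exon 2 line. The other 2 did not exceed 3.03 TPM.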
